A study of Mus musculus with 12 samples.

Results

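The enzymes that build heme were followed in mouse colonoids, which are organoids grown from colonic epithelial stem cells, after exposure to hemin, the oxidized form of heme. The 7 enzymes were Alas1, Alad, Uros, Urod, Cpox, Ppox and Fech, matched by gene symbol, and they made up 7 of the 54532 genes in the table and 7 of the 12740 genes that were expressed enough to be tested. There were 4 groups of 3 libraries. Control colonoids carried floxed alleles without Cre (Hmox1 fl/fl), and colonoids labelled KO carried the floxed alleles together with Cre under the Vil1 promoter, which is active in intestinal epithelial cells, so that both genotypes shared the floxed gene. Each genotype received vehicle or 200 µM hemin for 24 hours. The colonoids came from the colons of mice aged 8 to 12 weeks and were kept in medium conditioned by L-WRN cells. The labels do not say whether the libraries of a group came from separate mice or cultures, so p-values measure only the spread between these libraries, which may be technical. The comparison of hemin with vehicle asks how the pathway responds to an excess of its own end product, and the comparison of genotypes asks whether heme oxygenase-1, the enzyme that degrades heme, alters that response.

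Heme is made in steps that start and end in the mitochondrion, with the middle of the route in the cytosol. ALAS1 makes aminolevulinic acid and is the rate-limiting enzyme outside the red cell lineage, which uses a separate gene, Alas2. Heme is known to restrain ALAS1 at several levels, including its mRNA, its import into mitochondria and its breakdown by mitochondrial proteases, whereas the later enzymes are generally regarded as less tightly controlled. ALAD joins aminolevulinic acid into porphobilinogen, UROS closes the porphyrin ring, and UROD and CPOX trim its side chains. PPOX oxidizes the ring to protoporphyrin and FECH inserts iron.

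The libraries were of epithelium with almost no RNA of other cell types. All 7 epithelial markers examined (Epcam, Vil1, Cdh1, Krt8, Krt18, Krt19 and Cdx2) were tested, with a summed level of 5591 to 9843 FPKM (fragments per kilobase of transcript, scaled to library depth). Of 9 erythroid markers none passed the expression filter, their sum was 0.143 to 1.31 FPKM, and the 2 beta-globin genes Hbb-bs and Hbb-bt were at 0 in every library. Alas2 had 0 to 8 fragments a library, at most 0.198 FPKM, so the first step was represented by Alas1. Of 6 leukocyte markers Cd68 alone was tested, the sum of the 6 was 0.996 to 5.17 FPKM, and Ptprc was at most 0.0190 FPKM. The 6 fibroblast and endothelial markers summed to at most 0.210 FPKM. Between 11648801 and 25101868 fragments a library fell on genes, with the lowest depths in the control hemin group (11648801 to 11935604). In 3 libraries (control vehicle replicate 1, control hemin replicate 1 and KO hemin replicate 2) 1 short noncoding gene, Gm23935, made up 16.8% to 29.0% of the sum of FPKM but at most 0.765% of fragments, against at most 2.81% of FPKM elsewhere. In bulk RNA, fewer cells of a type and less RNA per cell cannot be told apart.

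The gene targeted by Cre was lower in the libraries labelled KO with vehicle, at 2.11 to 3.14 FPKM against 6.85 to 7.90 in controls. With hemin it stood at 1271 to 1393 FPKM in the libraries labelled KO and at 382 to 503 FPKM in controls, a log2 difference of 1.53 (SE 0.12, adjusted p = 3.3e-06 by limma). The deposited table counts whole genes, so it does not show whether the transcripts lacked the floxed exons, and this label is therefore used below as a label only. KO hemin replicate 3 is named KO in its title, but its genotype field reads fl/fl with Vil1 Cre where the others of that kind read KO.

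In control colonoids with vehicle, the enzymes stood in a clear order. Alad was the most abundant at 34.7 ± 5.87 FPKM (SD, n = 3), followed by Fech at 18.4 ± 0.474, Alas1 at 14.5 ± 0.463, Urod at 12.9 ± 0.815, Cpox at 7.85 ± 0.679, Ppox at 4.20 ± 0.0429 and Uros at 3.11 ± 0.290 FPKM. Each enzyme's lowest library lay above the highest library of the next, so Alas1 came behind Alad and Fech. With hemin, Alas1 in controls also came behind Urod, at 6.82 ± 0.742 FPKM, where its libraries overlapped those of Ppox, and Ppox, Cpox and Uros overlapped their neighbours too. In colonoids labelled KO, Alas1 came behind Alad, Urod and Fech with vehicle at 12.3 ± 0.510 FPKM, and with hemin behind Cpox as well, at 6.47 ± 0.746 against 8.50 ± 0.585 FPKM. The summed level of the 7 enzymes moved little, from a mean of 95.5 to 99.2 FPKM with hemin in controls and from 110 to 121 FPKM in colonoids labelled KO. What changed more was the composition, since the share of Alas1 in that sum went from 15.2% to 6.88% in controls after hemin, and from 11.1% to 5.35% in colonoids labelled KO.

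**Figure D1:**
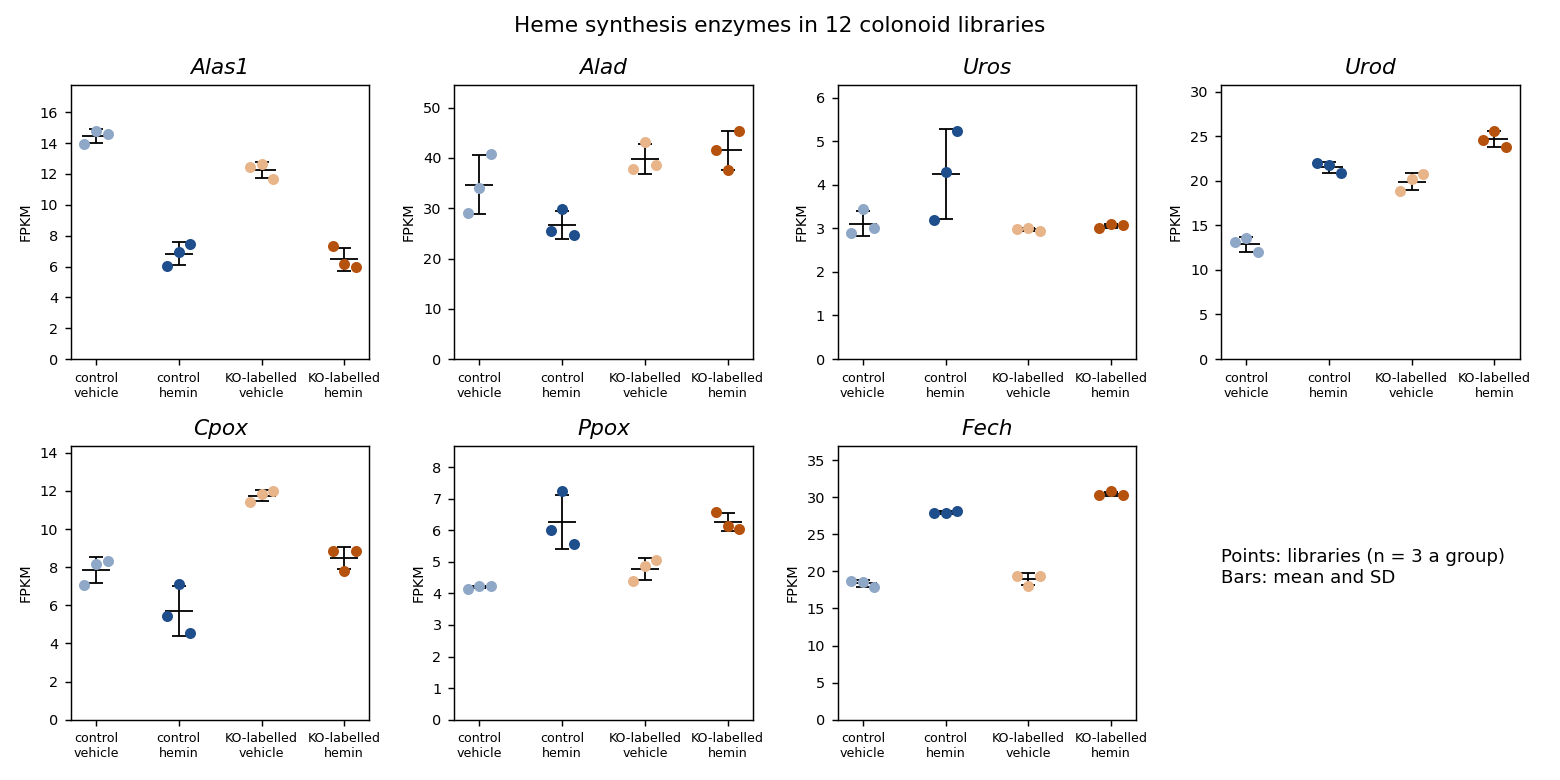
FPKM of the 7 enzymes (y axis, linear and starting at 0) in the 4 groups (x axis), with 1 point per library and bars for the mean and SD of 3 libraries. Alas1 fell with hemin from 11.7 to 14.8 FPKM over the 6 vehicle libraries to 5.94 to 7.49 FPKM over the 6 hemin libraries, while Fech rose from 17.8 to 19.4 FPKM to 27.8 to 30.8 FPKM.

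Hemin lowered the first enzyme and raised the last in both genotypes. In controls all 7 enzymes passed the test of hemin against vehicle (limma on log2(FPKM + 1), Benjamini-Hochberg adjusted p under 0.05 over 12740 genes), 4 of them higher (Uros, Urod, Ppox and Fech) and 3 lower (Alas1, Alad and Cpox). Over all tested genes 23.2% passed as higher and 26.7% as lower, and the median log2 fold change was 0.33 for the enzymes and -0.01 for all genes. The median of the enzymes was the value of Uros, and it read 0.20 to 0.49 when single libraries were left out. None of the 7 was also past a log2 fold change of 1, as 8.11% of all genes were, by limma on this scale, whereas limma-voom on the recovered fragments put 1 of them past it (Alas1, -1.09), as did limma on TPM (Alas1, -1.24, and -1.16 without Gm23935 in the sum). When single libraries were left out, Alas1 read -1.05 to -0.91, so this too could carry it past 1. Leaving out control vehicle replicate 3 took the count past the test from 7 to 4, with Alad, Uros and Cpox lost. In colonoids labelled KO, 5 of 7 passed, 3 higher (Urod, Ppox and Fech) and 2 lower (Alas1 and Cpox), against 29.9% higher and 30.4% lower over all genes. None was past a log2 fold change of 1 either by limma on FPKM or by limma-voom, against 12.9% of all genes by limma, whereas under TPM scaling Alas1 was (-1.22, adjusted p = 0.00022, and -1.12 without Gm23935 in the sum). The median of the enzymes was 0.06 against 0.00 for all genes, and 0.02 to 0.12 when single libraries were left out. Under TPM scaling it turned to -0.27 (the value of Uros) against -0.31 for all genes. Without Gm23935 in the sum it was -0.17 (the value of Alad) against -0.21. No test of the 7 as a list was made, and the counts at an unadjusted p under 0.05 were the same as the adjusted counts in both comparisons. Epithelial markers moved with hemin too. In controls 3 of 7 rose (Epcam 0.78, Vil1 0.83 and Cdh1 0.53), with sums of 8036 to 8972 FPKM with vehicle and 7827 to 9843 with hemin. In colonoids labelled KO 6 of 7 rose, Epcam by 0.98, Vil1 by 1.28 and Cdh1 by 0.82 among them, and Krt18 fell by 0.48, while the sum went from 5591 to 5634 FPKM with vehicle to 7261 to 8468 with hemin. Under TPM scaling Cdh1 missed the threshold in controls (adjusted p = 0.15), as did Krt8, Krt19 and Cdx2 in colonoids labelled KO (adjusted p of 0.17 to 0.83). The responses of Vil1, Cdh1, Krt8 and Krt19 were higher in colonoids labelled KO than in controls past the test on FPKM, and none of these 4 differences passed under TPM scaling, with or without Gm23935 in the sum (adjusted p of 0.071 to 0.84). Cd68, the leukocyte marker tested, rose by 1.14 with hemin in colonoids labelled KO (adjusted p = 0.0018), from a mean of 1.07 to 3.54 FPKM, and read 0.37 (adjusted p = 0.23) in controls. In colonoids labelled KO the leukocyte markers too low to test had means of at most 0.142 FPKM. With hemin Ptprc read higher there, and Cd3e, Cd79a, Fcgr1 and Itgam read lower. The part of these markers in the changes of the enzymes was not tested.

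Rescaling the values to a fixed sum per library (TPM) moved the median of all genes itself, to -0.19 in controls and -0.31 in colonoids labelled KO, and left 3 and 2 enzymes past the test. With Gm23935 left out of that sum the medians were -0.12 and -0.21. For the values as deposited the median of all genes lay between -0.01 and 0.04 in every comparison, and changes are to be read relative to it.

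**Figure D2:**
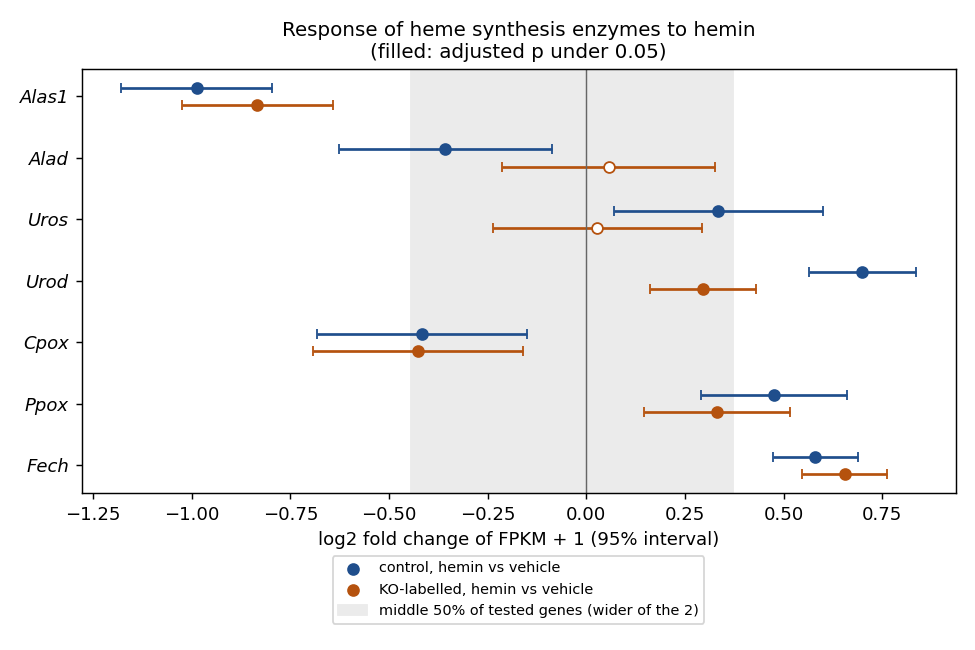
Log2 fold change of FPKM + 1 with hemin against vehicle (x axis) for each enzyme (y axis), with 95% intervals, in control and KO-labelled colonoids; filled points have an adjusted p under 0.05 and the gray band holds the middle 50% of tested genes. Alas1 lay at -0.99 and -0.83 and Fech at 0.58 and 0.65, outside the band in both genotypes; under TPM scaling the KO-labelled values of Alad, Uros and Urod fell below 0.

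Alas1 (ENSMUSG00000032786, chr9:106233455-106248654, minus strand, mm10) was the enzyme that changed most with hemin. It stood at 13.9, 14.8 and 14.6 FPKM in the control vehicle libraries and at 6.02, 6.94 and 7.49 FPKM in the control hemin libraries. The libraries labelled KO held 12.5, 12.7 and 11.7 FPKM with vehicle and 7.32, 6.15 and 5.94 FPKM with hemin. Every hemin library lay below every vehicle library of its genotype, with no overlap. The log2 fold change was -0.99 (SE 0.09, adjusted p = 4.9e-06) in controls, where mean FPKM fell by 52.8%, and -0.83 (SE 0.09, adjusted p = 1.0e-05) in colonoids labelled KO, where it fell by 47.3%. The fall passed the test under all 23 alternative analyses run in each genotype, with log2 fold changes of -1.24 to -0.91 in controls and -1.22 to -0.78 in colonoids labelled KO. The fall did not differ detectably between genotypes (difference 0.15, 95% interval -0.12 to 0.42, adjusted p = 0.42), an interval that holds both a larger and a smaller fall in colonoids labelled KO. Between 424 and 1563 fragments a library fell on Alas1, and the gene overlaps an antisense gene with at most 11 fragments.

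A stretch at the 5′ end of Alas1 is shown because the fall was the largest of the enzymes and its promoter is a known target of NRF1 (nuclear respiratory factor 1), a regulator of mitochondrial genes whose own mRNA is described below. It is the 250 bases before 1 of the RefSeq transcription starts of Alas1, at 106247730 (chr9:106247731-106247980, minus strand, GRCm38.p6), 5′ to 3′, and lies inside the gene span of the count table, whose 5′ end is at 106248654. Capitals mark the palindromic core of the NRF1 motif, CGCATGCG, which reads the same on both strands.
Alas1: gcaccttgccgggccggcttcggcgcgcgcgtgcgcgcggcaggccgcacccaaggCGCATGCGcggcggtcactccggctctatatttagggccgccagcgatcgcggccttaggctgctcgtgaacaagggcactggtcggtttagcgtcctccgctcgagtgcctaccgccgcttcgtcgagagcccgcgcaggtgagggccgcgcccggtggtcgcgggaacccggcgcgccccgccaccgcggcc
This core begins 194 bases before that start and 30 bases after the other RefSeq start, at 106247954. It was found in 1.87% of 32851 promoter windows of 300 bases (250 before to 50 after the start), and in windows of Alas1 only among the 6 enzymes with windows. It was added to the search after this window had been read. The shorter NRF1 site of 6 bases searched first, TGCGCA, was found in 7.76% of windows and not in those of Alas1. A match describes the letters and is not evidence that the factor binds.

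Of the genes tested, those whose levels over the 12 libraries were most like those of Alas1 were Plekhs1, Aqp1, Tcf23, Dio1 and Gm13655, with Pearson r of 0.98 each on log2(FPKM + 1). The 12 libraries fall into 4 groups, so this likeness is mostly one of group levels and has no p. Aqp1, a water channel, fell from 14.6 to 0.162 FPKM with hemin in controls and from 7.29 to 0.0466 FPKM in colonoids labelled KO. Dio1, a deiodinase of thyroid hormone, had means of 5.63 and 1.89 FPKM in controls and 4.27 and 1.72 FPKM in colonoids labelled KO, a range closer to that of Alas1.

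Alad (ENSMUSG00000028393, chr4:62509169-62519918, minus strand), the most abundant of the enzymes with vehicle, behaved less uniformly. Its levels were 29.1, 34.1 and 40.8 FPKM in control vehicle libraries and 25.4, 29.9 and 24.7 FPKM in control hemin libraries. It read 37.7, 43.2 and 38.6 FPKM with vehicle and 41.5, 37.6 and 45.4 FPKM with hemin in colonoids labelled KO. The groups with and without hemin overlapped in both genotypes. The fall in controls was small (log2 fold change -0.36, SE 0.12, adjusted p = 0.031) and lost its call without control vehicle replicate 2 (adjusted p = 0.069) or 3 (0.13) or control hemin replicate 1 (0.086) or 3 (0.075). It read -0.24 without control vehicle replicate 3. The call was also lost with no filter on low values (adjusted p = 0.068), under TPM scaling (-0.55, adjusted p = 0.081) and when only those 2 groups were fitted (adjusted p = 0.095), so it held in 16 of 23 alternative analyses. The change in colonoids labelled KO was 0.06 (SE 0.12, adjusted p = 0.71), with the sign turning to -0.28 under TPM scaling. The difference between those responses was 0.41 (95% interval 0.03 to 0.80), which did not pass correction (adjusted p = 0.11).

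Uros (ENSMUSG00000030979, chr7:133686243-133710072, minus strand) was the least abundant of the 7 and the least secure. It had 2.88, 3.44 and 3.01 FPKM with vehicle and 3.19, 4.30 and 5.24 FPKM with hemin in controls. All 6 libraries labelled KO lay between 2.94 and 3.09 FPKM. In controls the groups overlapped and the 3 hemin libraries spread more than any other group. Its rise there (0.33, SE 0.12, adjusted p = 0.038) passed in 8 of 22 alternative analyses and was lost on leaving out any of 10 single libraries, with adjusted p from 0.050 to 0.11. It read 0.20 without control hemin replicate 3. Only 130 to 260 fragments a library fell on Uros, and its gene span shares 740 bases with that of Bccip on the opposite strand (mean 20.5 FPKM). The strand setting of the counting is not given in the sources used here, so reads of Uros and Bccip in that stretch cannot be told apart.

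Urod (ENSMUSG00000028684, chr4:116989965-116994413, minus strand) rose more in controls than in colonoids labelled KO. It read 13.1, 13.6 and 11.96 FPKM with vehicle and 22.0, 21.7 and 20.8 FPKM with hemin in controls. The levels in colonoids labelled KO were 18.9, 20.1 and 20.7 FPKM with vehicle and 24.6, 25.6 and 23.8 FPKM with hemin. The groups did not overlap in either genotype, and the vehicle libraries labelled KO already lay above all control vehicle libraries. The log2 fold change with hemin was 0.70 (SE 0.06, adjusted p = 4.9e-06) in controls and 0.30 (SE 0.06, adjusted p = 0.0015) in colonoids labelled KO, where TPM scaling turned it to -0.03. The response was smaller by 0.40 in colonoids labelled KO (difference -0.40, SE 0.09, 95% interval -0.59 to -0.21, adjusted p = 0.0062). Urod was the 1 enzyme of 7 whose response differed between genotypes past the test, when 13.3% of all genes differed as higher, 10.5% as lower and 5.13% past the test and by more than 1 on the log2 scale. This difference passed in 21 of 22 alternative analyses and was -0.57 with an adjusted p of 0.18 under TPM scaling.

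Cpox (ENSMUSG00000022742, chr16:58670292-58717636, plus strand), which acts after UROD, fell with hemin by nearly the same amount in both genotypes. It read 7.07, 8.17 and 8.31 FPKM with vehicle and 5.45, 7.12 and 4.54 FPKM with hemin in controls. In colonoids labelled KO it read 11.4, 11.8 and 11.98 FPKM with vehicle and 8.83, 7.82 and 8.84 FPKM with hemin. The control groups overlapped, by the second hemin library, and those labelled KO did not. The log2 fold change was -0.42 (SE 0.12, adjusted p = 0.014) in controls and -0.43 (SE 0.12, adjusted p = 0.0099) in colonoids labelled KO, a difference of -0.01 (95% interval -0.39 to 0.37). The fall in controls lost its call without control vehicle replicate 3 (-0.38, adjusted p = 0.051) and when only those 2 groups were fitted (adjusted p = 0.080), and the fall in colonoids labelled KO without the 3 libraries rich in Gm23935 (-0.37, adjusted p = 0.057).

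Ppox (ENSMUSG00000062729, chr1:171275990-171281186, minus strand) and Fech, the last steps of the route, rose together. Ppox read 4.15, 4.22 and 4.22 FPKM with vehicle and 5.999, 7.23 and 5.57 FPKM with hemin in controls. Its levels in colonoids labelled KO were 4.39, 4.86 and 5.05 FPKM with vehicle and 6.57, 6.14 and 6.04 FPKM with hemin. All hemin libraries lay above all vehicle libraries. The log2 fold change was 0.48 (SE 0.08, adjusted p = 0.00072) in controls and 0.33 (SE 0.08, adjusted p = 0.0054) in colonoids labelled KO, and the difference was -0.15 (95% interval -0.41 to 0.12, adjusted p = 0.43). The gene span of Ppox shares 907 bases with that of B4galt3 on the opposite strand (mean 4.98 FPKM), so the same limit holds as for Uros. Under TPM scaling the rises of Ppox were 0.35 (adjusted p = 0.17) and 0.05 (adjusted p = 0.85).

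The upstream sequences of Urod and Ppox are shown beside each other because these 2 enzymes rose in both genotypes on the deposited scale. In colonoids labelled KO neither rise passed under TPM scaling, with or without Gm23935 in the sum. Without it, Urod read 0.08 (adjusted p = 0.29) and Ppox 0.16 (adjusted p = 0.18) by limma. Each is the 250 bases before a RefSeq start, 5′ to 3′, for Urod chr4:116994414-116994663 and for Ppox chr1:171281187-171281436, both on the minus strand of GRCm38.p6. Capitals mark the E box CACGTG, the GC box GGGCGG and the CCAAT box CCAAT, on either strand.
Urod: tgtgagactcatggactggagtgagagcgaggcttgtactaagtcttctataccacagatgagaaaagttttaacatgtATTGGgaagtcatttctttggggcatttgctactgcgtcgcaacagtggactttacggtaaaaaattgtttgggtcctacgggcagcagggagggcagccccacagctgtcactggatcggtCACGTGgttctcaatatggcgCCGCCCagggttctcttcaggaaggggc
Ppox: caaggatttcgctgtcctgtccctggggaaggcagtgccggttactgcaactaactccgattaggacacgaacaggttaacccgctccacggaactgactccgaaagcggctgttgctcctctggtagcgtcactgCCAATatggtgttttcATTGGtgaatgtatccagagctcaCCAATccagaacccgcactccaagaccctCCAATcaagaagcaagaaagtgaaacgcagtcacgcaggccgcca
The Urod window held 1 E box (7.15% of all windows hold one), 1 CCAAT box and 3 GC boxes, 1 of them across the start and 1 past it. The Ppox window held 4 CCAAT boxes (37.4% of all windows hold at least 1) and 1 GC box past the start (35.7% of windows). Neither held the antioxidant response element core, TGANNNNGC, which 41.3% of windows hold on either strand and which was found in windows of Uros and Cpox.

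Fech (ENSMUSG00000024588), which completes heme, rose with hemin in both genotypes. It read 18.7, 18.6 and 17.8 FPKM with vehicle and 27.9, 27.8 and 28.2 FPKM with hemin in controls. The libraries labelled KO read 19.4, 18.05 and 19.4 FPKM with vehicle and 30.3, 30.8 and 30.2 FPKM with hemin. The 6 hemin libraries lay far above the 6 vehicle libraries. The log2 fold change was 0.58 (SE 0.05, adjusted p = 3.7e-06) in controls and 0.65 (SE 0.05, adjusted p = 8.0e-07) in colonoids labelled KO, or 1.52 and 1.60 times the mean FPKM. The responses did not differ detectably (difference 0.07, 95% interval -0.08 to 0.23, adjusted p = 0.49). Under TPM scaling alone the rise missed the threshold, at 0.41 (adjusted p = 0.083) and 0.34 (adjusted p = 0.12). The genes most like Fech over the 12 libraries were Cyp1a1, Ppt1, Mgea5, Slc44a3 and Mia3 (r = 0.99 each). Cyp1a1, a heme-containing monooxygenase induced through the aryl hydrocarbon receptor, had means of 0.0422 and 66.7 FPKM in controls and 0.634 and 206 FPKM in colonoids labelled KO.

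Ratios of 2 enzymes within a library do not depend on how libraries are scaled. The Fech to Alas1 ratio was 1.34, 1.25 and 1.22 in control vehicle libraries and 4.63, 4.01 and 3.76 in control hemin libraries. In libraries labelled KO it was 1.56, 1.43 and 1.66 with vehicle and 4.13, 5.01 and 5.09 with hemin. Group means went from 1.27 ± 0.0644 to 4.13 ± 0.445 in controls and from 1.55 ± 0.118 to 4.74 ± 0.532 in colonoids labelled KO, and no hemin library came near a vehicle library. The Urod to Alas1 ratio went from 0.890 ± 0.0639 to 3.19 ± 0.436 in controls, so that Urod passed from below Alas1 to above it, and from 1.62 ± 0.131 to 3.84 ± 0.433 in colonoids labelled KO. The Alad to Alas1 ratio went from 2.39 ± 0.359 to 3.94 ± 0.560 and from 3.24 ± 0.199 to 6.48 ± 1.04. All 3 ratios were higher with hemin in every library of both genotypes. A ratio shows unequal change and not which of its parts changed.

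**Figure D3:**
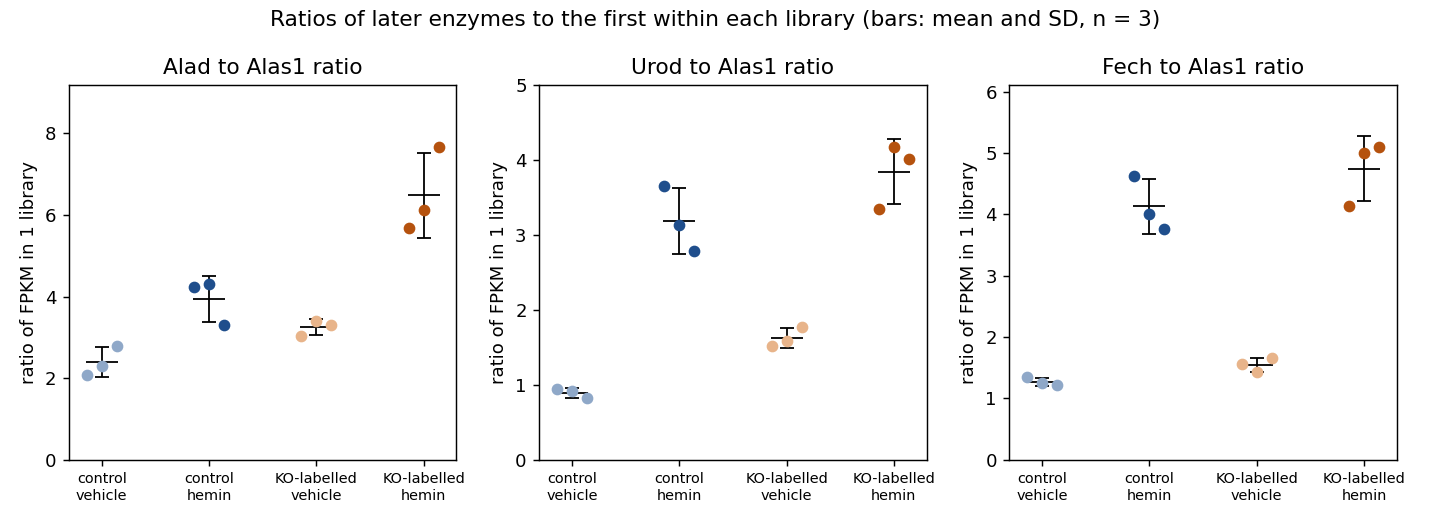
Ratio of the FPKM of Alad, Urod and Fech to that of Alas1 in the same library (y axes, starting at 0) in the 4 groups (x axis), with 1 point per library and bars for the mean and SD of 3. The Fech to Alas1 ratio was 1.22 to 1.66 in the vehicle libraries and 3.76 to 5.09 in the hemin libraries.

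Between genotypes with vehicle, UROD and CPOX mRNAs were higher in colonoids labelled KO and no enzyme passed as lower. Urod was 1.55 times (log2 difference 0.59, SE 0.06, adjusted p = 2.1e-05) and Cpox 1.497 times the control mean (0.53, SE 0.12, adjusted p = 0.0055), with no overlap of libraries for either. Both passed in all 23 alternative analyses. Of all tested genes 17.4% passed as higher, 16.8% as lower and 6.8% past the test with a log2 difference over 1, and no enzyme did the last, by limma, by limma-voom or at an unadjusted p under 0.05. Alas1 was lower by 0.22 (SE 0.09, adjusted p = 0.074). All 3 of its libraries labelled KO lay below all 3 control libraries, but the libraries of Ppox did not overlap either (adjusted p = 0.21). The share of all genes without overlap is not given here. Alas1 was the 1 enzyme lower at an unadjusted p under 0.05. The difference missed the threshold in 18 of 23 alternative analyses, among them TPM scaling (-0.09, adjusted p = 0.82, and -0.17, adjusted p = 0.21, without Gm23935 in the sum), and passed with limma-voom (-0.24, adjusted p = 0.045), when only those 2 groups were fitted (adjusted p = 0.0094), and without control hemin replicate 1 (0.049), control hemin replicate 3 (0.037) or KO hemin replicate 1 (0.049). Differences for the other 4 were 0.21 for Alad, 0.15 for Ppox, 0.04 for Fech and -0.04 for Uros, with adjusted p of 0.21 to 0.82. Leaving out single libraries moved the difference of Alad between 0.089 (without control vehicle replicate 1) and 0.33 (without control vehicle replicate 3), past the test in none of them. The summed epithelial markers were also lower in this group, at 5591 to 5634 FPKM against 8036 to 8972 in controls, with Cdx2, an intestinal transcription factor, lower (log2 difference -2.03, adjusted p = 6.1e-06). All 7 markers read lower and 4 passed the test. Krt8 and Krt19 made up most of the sum, with means of 2336 and 1468 FPKM against 3834 and 2529 in controls. Epcam (-0.06), Cdh1 (-0.09) and Vil1 (-0.20) had the smallest differences. Cd68 was lower as well (-0.82, adjusted p = 0.022). Of the leukocyte markers too low to test, Itgam read lower and Ptprc, Cd3e, Cd79a and Fcgr1 read higher, at means of at most 0.378 FPKM. The part of the epithelial and leukocyte markers in the differences of the enzymes was not tested.

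With hemin, 3 enzymes were higher in colonoids labelled KO than in controls and 1 was lower. Alad was higher by 0.62 (SE 0.12, adjusted p = 0.0024), Cpox by 0.52 (SE 0.12, adjusted p = 0.0064) and Urod by 0.19 (SE 0.06, adjusted p = 0.033), and Uros was lower by 0.35 (log2 difference -0.35, SE 0.12, adjusted p = 0.043). Over all genes 19.7% passed as higher, 14.7% as lower and 6.01% past the test with a log2 difference over 1, which no enzyme did by limma, by limma-voom or at an unadjusted p under 0.05. Alas1 read -0.07 (adjusted p = 0.60), Ppox 0.00 (adjusted p = 0.99) and Fech 0.12 (adjusted p = 0.087), the 95% interval for Alas1 being -0.26 to 0.12. The count of 4 fell to 2 without KO vehicle replicate 2 or without any 1 of the 3 KO hemin replicates, to 1 when only those 2 groups were fitted and to 0 under TPM scaling. Urod lost its call in 10 of 23 alternative analyses, the fit with a replicate block among them (0.19, adjusted p = 0.051), and Uros in 14 of 22. Leaving out single libraries moved the difference of Uros between -0.50 and -0.22, the latter without control hemin replicate 3. The summed epithelial markers overlapped between these groups, at 7261 to 8468 FPKM in libraries labelled KO and 7827 to 9843 in controls, but single markers differed. Cdx2 (log2 difference -1.27, adjusted p = 0.00025) and Krt18 (-0.69, adjusted p = 0.00033) were lower in colonoids labelled KO and Cdh1 (0.20, adjusted p = 0.010) was higher, Cdh1 losing its call under TPM scaling (adjusted p = 0.51), and their part in the differences of the enzymes was not tested. The comparisons of hemin with vehicle and of genotypes share libraries, so their values are not independent.

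**Figure D4:**
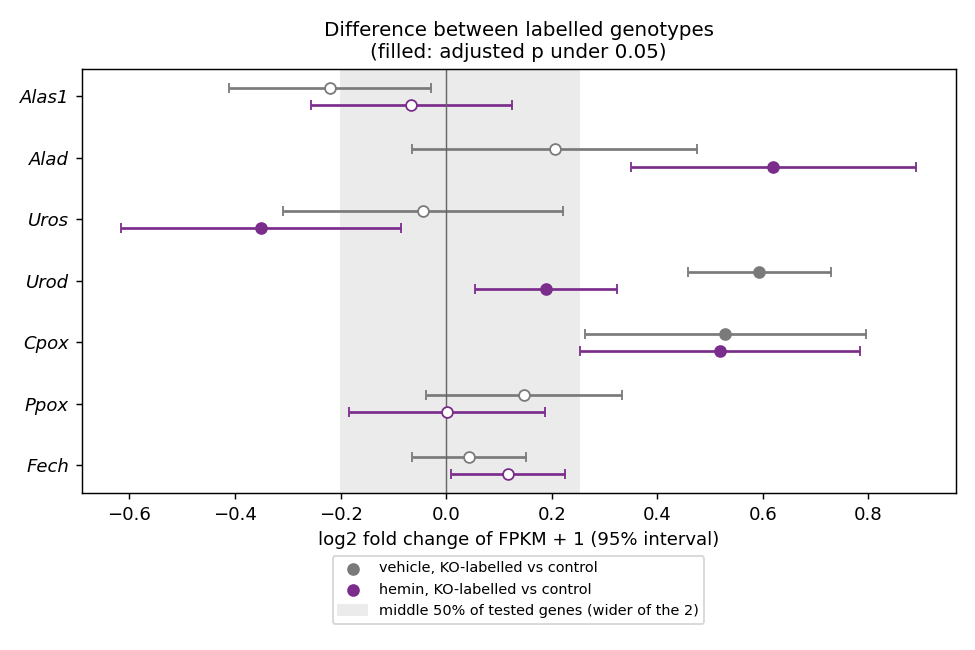
Log2 difference of FPKM + 1 between colonoids labelled KO and controls (x axis) for each enzyme (y axis), with 95% intervals, with vehicle and with hemin. Filled points have an adjusted p under 0.05. The gray band, from -0.20 to 0.25, takes in the middle 50% of tested genes of both comparisons, and so more than 50% of each. Cpox stood at 0.53 and 0.52, Urod at 0.59 with vehicle and 0.19 with hemin, and Alad at 0.21 and 0.62; under the scalings tried the sign turned only for Uros with vehicle and Ppox with hemin.

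Genes that supply, carry or assemble the intermediates of heme moved in a mixed way. Of 11 genes described here 10 were tested, Abcb6, a porphyrin transporter, being at most 0.709 FPKM. With hemin 4 of these 10 rose and 1 fell in controls, and 5 rose in colonoids labelled KO, against 23.2% higher and 26.7% lower over all genes in controls and 29.9% and 30.4% in colonoids labelled KO. In controls the rises were Abcg2 (0.77, SE 0.11), an exporter of porphyrins and drugs, Pgrmc1 (0.62, SE 0.07), a heme-binding partner of FECH, Slc25a38 (0.36, SE 0.09), the mitochondrial glycine carrier, and Tmem14c (0.30, SE 0.10), a carrier of porphyrinogen. Abcb10, a mitochondrial transporter, fell by 0.38 in controls (SE 0.07, adjusted p = 0.00068). The rises in colonoids labelled KO were Pgrmc1 (1.15, SE 0.07, adjusted p = 2.4e-07), Tspo (0.74, SE 0.21), Slc25a38 (0.47, SE 0.09), Tmem14c (0.28, SE 0.10) and Slc25a37 (0.25, SE 0.07), the last 2 turning to -0.06 and -0.07 under TPM scaling. That scaling also took the call from Pgrmc1 (0.43, adjusted p = 0.093), Slc25a38 (0.19, adjusted p = 0.51) and Tmem14c (0.11, adjusted p = 0.69) in controls, and from Tspo (0.40, adjusted p = 0.19) and Slc25a38 (0.18, adjusted p = 0.49) in colonoids labelled KO. Slc25a37, mitoferrin-1, which brings iron into mitochondria, was lower in colonoids labelled KO at both treatments, by 0.98 with vehicle (log2 difference -0.98, SE 0.07, adjusted p = 6.3e-07) and by 0.80 with hemin (-0.80, SE 0.07, adjusted p = 3.6e-06). It read 19.2 to 21.9 FPKM in control vehicle libraries and 9.56 to 10.5 FPKM in vehicle libraries labelled KO. Responses of Abcb10 (0.46, adjusted p = 0.0047), Pgrmc1 (0.53, adjusted p = 0.0035) and Abcg2 (-0.60, adjusted p = 0.022) differed between genotypes, and under TPM scaling none of these 3 differences passed (adjusted p = 0.51, 0.47 and 0.13).

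Among 9 regulators of Alas1 and proteases that act on its protein, 4 fell and none rose with hemin in controls by limma (none rose at an unadjusted p under 0.05 either), and 4 fell and 3 rose in colonoids labelled KO. The shares over all genes were 26.7% lower and 23.2% higher in controls, and 30.4% and 29.9% in colonoids labelled KO. Lonp1, a mitochondrial protease known to degrade ALAS1, fell most in both genotypes. It read 34.9, 36.3 and 39.9 FPKM with vehicle and 18.1, 22.8 and 15.99 FPKM with hemin in controls, and 33.8 to 37.6 and 18.02 to 19.4 FPKM in colonoids labelled KO. The groups did not overlap, and the log2 fold changes were -0.94 (SE 0.11, adjusted p = 3.5e-05) and -0.90 (SE 0.11, adjusted p = 3.0e-05). Nrf1, which encodes the factor whose motif core is marked in the Alas1 sequence, fell by 0.29 (SE 0.06, adjusted p = 0.0020) and by 0.27 (SE 0.06, adjusted p = 0.0025). Clpp, the proteolytic subunit of the ClpXP protease, fell by 0.36 and by 0.55 (SE 0.13 each), and Ppargc1b, a coactivator of mitochondrial genes, fell in controls by 0.40 (SE 0.15, adjusted p = 0.045). In colonoids labelled KO, Nr1d2, a heme-binding nuclear receptor of the clock, fell by 0.65 (SE 0.07, adjusted p = 1.4e-05), and its response differed from that of controls (-0.79, SE 0.10, adjusted p = 0.00021). Foxo1 (0.42), Ppargc1a (0.37) and Clpx (0.22), the unfoldase of ClpXP, rose in colonoids labelled KO, Clpx turning to -0.10 under TPM scaling, where Foxo1 (0.17, adjusted p = 0.47) and Ppargc1a (0.14, adjusted p = 0.63) no longer passed. Of 3 enzymes of mitochondrial heme use, Cox10, which farnesylates heme for cytochrome oxidase, fell by 0.39 in controls and by 0.76 in colonoids labelled KO (SE 0.08 each), and Hccs, which attaches heme to cytochrome c, fell by 0.24 and by 0.23 (SE 0.09 each), the former missing the threshold under TPM scaling (-0.45, adjusted p = 0.083).

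**Figure D5:**
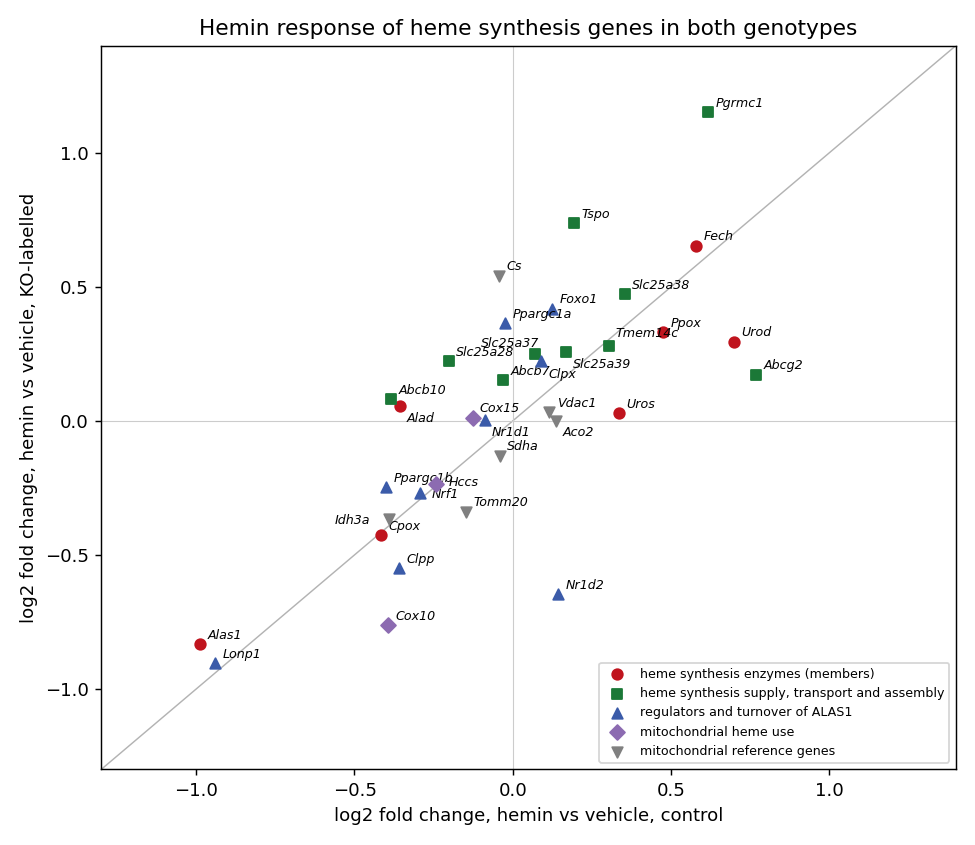
Log2 fold change of FPKM + 1 with hemin against vehicle in control (x axis) and KO-labelled colonoids (y axis) for the 7 enzymes and for genes of heme supply, ALAS1 regulation, mitochondrial heme use and mitochondrial reference functions, with a line of equal response. Alas1 (-0.99, -0.83) and Lonp1 (-0.94, -0.90) lay at the lower left and Fech (0.58, 0.65) at the upper right; Alad, Uros, Urod, Tmem14c, Slc25a37 and Clpx were among the genes whose KO-labelled value went below 0 under TPM scaling.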

How the data were processed

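Poly-A RNA of 12 colonoid libraries was sequenced by Novogene. The submitters' processing notes name fastp, HISAT2 2.0.5, featureCounts 1.5.0-p3 and the build mm10. The authors deposited 1 table of FPKM per gene and library, with gene lengths and coordinates. Every FPKM value divided into whole fragments of the gene's length (tolerance 1e-06), which gave 11648801 to 25101868 fragments per library. Median-of-ratios factors computed from the deposited FPKM were 1.01 in each library, so a scaling between libraries had already been applied.

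Groups came from the sample titles. Genes with at least 1 FPKM in at least 3 of 12 libraries were kept, and log2(FPKM + 1), which understates the change of low genes, was fitted with limma 3.58.1 in R 4.3.3 with 1 mean per group and a variance trend (8 residual degrees of freedom), and p-values were adjusted over 12740 genes by the Benjamini-Hochberg method. Ratios and shares were described without tests. The 5 comparisons were hemin against vehicle in each genotype, genotype at each treatment, and their interaction. The script was tested on simulated data. Alternatives were another pseudocount (0.1), other filters (none, or a mean of at least 5 FPKM), TPM with and without Gm23935, median-of-ratios scaling, a replicate block, no variance trend, only the groups compared, limma-voom on recovered fragments, leaving out each library and, added after seeing the data, leaving out the 3 libraries rich in Gm23935. Promoter windows came from RefSeq (GRCm38.p6), and 6 of the 7 enzymes had 9 windows that were used. Figures were drawn with matplotlib in Python.

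The 7 enzymes, the gene lists and the tests were chosen with earlier results of these data known. Named were all 7 enzymes, Hmox1, Alas2, up to 4 genes of each list past the test by size, and the 5 genes most like Alas1 and Fech; list genes beyond these were chosen after their values were seen. A further step of the pathway, 1 gene of the supply list and protein sequences are not reported here, and counts leave them out.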

Additional observations from a re-analysis of the deposited data

Results flagged for a closer look

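The response of Urod to hemin differed between genotypes by the interaction term of the limma fit, with a log2 difference of -0.40 (SE 0.09, adjusted p = 0.0062). Hemin raised Urod by 0.70 in controls and by 0.30 in colonoids labelled KO. With hemin the 3 libraries labelled KO (23.8 to 25.6 FPKM) were above the 3 control libraries (20.8 to 22.0 FPKM), and with vehicle they stood at 18.9 to 20.7 against 11.96 to 13.6 FPKM, log2 differences of 0.19 and 0.59. Leaving out single libraries gave -0.44 to -0.36. In the vehicle libraries labelled KO the summed epithelial markers, mostly Krt8 and Krt19, were also lower. Their part in this result was not tested. No other enzyme met this criterion, and groups of 3 libraries are too small for the check on single outlying samples.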

How the results depend on the processing

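The fall of Alas1 with hemin in both genotypes, and the higher Urod and Cpox in colonoids labelled KO with vehicle, kept their direction and passed the test under every alternative run. The alternatives are not independent of each other. Median-of-ratios scaling had the same factor in every library, and leaving out a library outside the groups compared does not change the fold change. The number of enzymes past the test with hemin in controls was 7, and 3 under TPM, 4 when only the groups compared were fitted, and 4 to 6 when single libraries were left out. In colonoids labelled KO it was 5, and 2 under TPM and 3 under TPM without Gm23935. Between genotypes with hemin it was 4, and 0 under TPM, 1 with only the groups compared, and 2 to 3 when single libraries were left out. For the interaction it was 1, and 0 under TPM and 1 to 2 when single libraries were left out.

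Directions turned as follows. For hemin in colonoids labelled KO, Alad read -0.28 and Uros -0.27 under TPM, and -0.17 each without Gm23935 in the sum, Urod read -0.030 under TPM, and leaving out single libraries gave Alad -0.00873 to 0.125. Between genotypes with vehicle, Uros read 0.081 under TPM, 0.0065 without Gm23935 in the sum and -0.084 to 0.012 without single libraries. Between genotypes with hemin, Ppox read -0.049 under TPM without Gm23935, -0.00059 with limma-voom, -0.012 without the 3 libraries rich in Gm23935 and -0.067 to 0.095 without single libraries. For the interaction, Fech read -0.070 under TPM and -0.041 without Gm23935 in the sum, and Cpox read 0.010 with a pseudocount of 0.1, 0.0030 with limma-voom, 0.088 without the 3 libraries and -0.14 to 0.14 without single libraries. The TPM sum is what these scalings change, and other causes were not tested.

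Replicate numbers did not pair the samples: deviations of same-numbered libraries correlated from -0.33 to 0.18 (mean -0.04 over 18 pairs). With a replicate block, 7, 5, 2, 3 and 1 enzymes passed in the 5 comparisons, and Urod between genotypes with hemin (0.19, adjusted p = 0.051) was the call that changed. Uros had no value at a mean of at least 5 FPKM, and the interaction cannot be fitted from 2 groups. With 130 to 260 fragments a library, Uros is the enzyme limited most by depth.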

Other observations

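Genes of heme breakdown also responded to hemin. Hmox1, which opens the heme ring, rose by 5.75 in controls (SE 0.12, adjusted p = 2.5e-10) and by 8.55 in colonoids labelled KO (SE 0.12, adjusted p = 7.1e-12), on the log2(FPKM + 1) scale. Its constitutive relative Hmox2 rose by 0.44 and by 0.56 (SE 0.08 each, adjusted p = 0.00093 and 0.00013), but not past the test under TPM scaling (0.27 and 0.25, adjusted p = 0.24 and 0.25). The biliverdin reductases went opposite ways in colonoids labelled KO, where Blvra fell by 0.47 (SE 0.08, adjusted p = 0.00049) and Blvrb rose by 1.26 (SE 0.14, adjusted p = 1.3e-05). The response of Blvrb was larger there than in controls by 1.02 (SE 0.19, adjusted p = 0.0029).

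Of 6 mitochondrial reference genes, which act outside heme synthesis, 1 fell and none rose with hemin in controls by limma, nor did any rise at an unadjusted p under 0.05, against 26.7% lower and 23.2% higher over all genes. Of the same 6, 1 rose and 2 fell in colonoids labelled KO, against 29.9% higher and 30.4% lower over all genes. Idh3a, a subunit of isocitrate dehydrogenase, fell by 0.39 (SE 0.09, adjusted p = 0.0036) in controls and by 0.36 (SE 0.09, adjusted p = 0.0043) in colonoids labelled KO. Cs, citrate synthase, rose by 0.54 in colonoids labelled KO (SE 0.05, adjusted p = 3.0e-06) but did not pass under TPM scaling (0.21, adjusted p = 0.35), and Tomm20, an import receptor, fell there by 0.34 (SE 0.06, adjusted p = 0.00065). The medians of the 6 were -0.04 in controls and -0.06 in colonoids labelled KO, against -0.01 and 0.00 over all genes.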
